A study of Mus musculus with 18 samples.

Results

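Brown adipose tissue (BAT) was compared with white adipose tissue (WAT) of wild-type control mice over 9 of the 18 arrays of a mouse study. The 9 arrays are the 5 whose titles name control BAT and the 4 whose titles name control WAT. All of these samples came from male C57BL/6J mice, wild type and labelled as controls, 10 weeks old and on chow. From 500 ng of total RNA per sample, biotin-labelled cDNA was hybridised to an Affymetrix mouse gene array, 1 sample per array. The other 9 arrays hold 5 BAT and 4 WAT samples of mice of the same strain, sex, age and diet that overexpressed human FXR, the bile acid receptor, in adipose tissue only, per the genotype label. They enter 1 comparison, at the end. The labels do not say which white depot was taken, or whether 1 animal gave both a brown and a white sample. Samples of a group are biological replicates, per the series' design text. The text for control BAT 2 and 4 adds that chow was fed for 6 weeks.

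Brown adipocytes are packed with mitochondria and small lipid droplets. Noradrenaline acts on them through cyclic AMP, lipolysis releases fatty acids, and UCP1 lets protons flow back into the mitochondrial matrix without making ATP, so that the energy of fuel oxidation leaves as heat. White adipocytes keep triglyceride in a large droplet and secrete hormones such as leptin, and they share with brown adipocytes the nuclear receptor PPARγ and much of the machinery of lipid storage.

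Sequence around the start site is given first for 3 genes that mark the contrast: the heat-producing uncoupling protein gene Ucp1, the electron carrier gene Cycs, which stands for the mitochondrial genes that follow, and the leptin gene Lep. The windows run from 250 bases before to 50 bases after the start, in the direction of the gene, as RefSeq gives them for GRCm38.p6. Ucp1 lies at chr8:83290098-83290397 on the plus strand, Cycs at chr6:50566520-50566819 on the minus strand and Lep at chr6:29059971-29060270 on the plus strand. Capitals mark matches to 1 of 4 motifs that were chosen after the data were seen and searched on both strands: CCGGAAGT of the ETS family, GCGCATGCG of NRF1, TCAAGGTCA of the estrogen-related receptors and TGACGTCA, the cyclic AMP response element. The Cycs window held TGACGTCA and, as the reverse complement, the NRF1 motif. None of the 4 words was found in the Ucp1 or Lep window, which says only that these letters are not in these 300 bases.
Ucp1: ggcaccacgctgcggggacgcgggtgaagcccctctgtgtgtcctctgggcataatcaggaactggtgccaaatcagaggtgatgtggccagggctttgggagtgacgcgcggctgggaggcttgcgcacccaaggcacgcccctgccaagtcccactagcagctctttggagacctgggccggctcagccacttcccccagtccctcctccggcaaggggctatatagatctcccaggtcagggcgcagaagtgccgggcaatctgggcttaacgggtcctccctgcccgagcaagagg
Cycs: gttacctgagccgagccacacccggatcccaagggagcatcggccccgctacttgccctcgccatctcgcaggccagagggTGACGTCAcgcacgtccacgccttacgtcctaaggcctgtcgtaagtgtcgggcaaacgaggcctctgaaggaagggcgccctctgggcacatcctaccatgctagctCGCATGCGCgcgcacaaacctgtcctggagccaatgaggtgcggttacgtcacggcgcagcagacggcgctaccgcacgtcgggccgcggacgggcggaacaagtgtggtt
Lep: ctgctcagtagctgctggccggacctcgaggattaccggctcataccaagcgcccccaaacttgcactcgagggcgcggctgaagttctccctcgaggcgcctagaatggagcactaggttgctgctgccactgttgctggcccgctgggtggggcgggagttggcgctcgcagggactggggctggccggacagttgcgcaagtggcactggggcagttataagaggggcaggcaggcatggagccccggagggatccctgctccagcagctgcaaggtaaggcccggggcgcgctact

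Array medians of the deposited intensities were 93.1 to 97.8 on the BAT arrays and 60.7 to 61.7 on the WAT arrays, and intensities within 1.5 times an array's 1% quantile, called near the floor here, made up 28.7% to 34.9% of probe sets in BAT and 58.5% to 62.0% in WAT. Because the tissues sat at different overall levels, the 9 arrays were brought to 1 distribution by quantile normalization, and values below are log2(intensity + 1) on that scale unless another is named. A difference is BAT minus WAT with the standard error (SE) and adjusted p of limma, n = 5 and 4, and values by array follow the numbers in the titles. Intensities stop at a floor, and how much background they include is not known. Differences of dim genes may be understated, and more probe sets were dim in WAT. Array profiles correlated at 0.9923 to 0.9952 within BAT (10 pairs), 0.9836 to 0.9906 within WAT (6 pairs) and 0.8577 to 0.8796 between the tissues (20 pairs), all across genes. In bulk tissue, fewer cells of a type and less RNA per cell cannot be told apart, and precision is limited by how few arrays there are.

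Of 19937 genes, limma called 4699 higher in BAT (23.6%) and 6851 higher in WAT (34.4%). At least 2-fold, 732 genes were higher in BAT (3.67%) and 823 higher in WAT (4.13%), and the median size of a called difference was 0.36 log2 units. The arrays of the groups did not overlap for 4058 genes higher in BAT (20.4%) and 6079 higher in WAT (30.5%). The direction of small differences depended on the scale. Centred on each array's median, 46.6% of the called genes were higher in BAT, against 40.7% after quantile normalization, 22.5% after centring on the 75th percentile and 98.0% on the deposited scale. The median gene differed by -0.04 after quantile normalization, by 0.59 on the deposited scale and by -0.43 after 75th percentile centring. Sizes moved as well: the difference of Gpd2 was 2.84 after quantile normalization and 4.37 on the deposited scale, and that of Nnat was -5.00 and -3.50. Called in the same direction after quantile normalization, after median centring and on the deposited scale were 4095 genes higher in BAT (20.5%) and 395 higher in WAT (1.98%). This rule is uneven. The deposited scale called 18896 genes higher in BAT and 395 in WAT, so it asks little of genes higher in BAT and much of genes higher in WAT. Centring on the 75th percentile, which called 4036 and 13865, is not part of the rule. A single gene described below as higher in a tissue is of this kind unless the sentence says otherwise. Counts over a list are those after quantile normalization, with the count on all 3 scales given beside them where it differs. They are to be read against the shares over all genes, 23.6% higher in BAT and 34.4% higher in WAT. A count near those shares does not set a list apart from genes at large.

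The tissue labels matched the markers of each fat. All 10 brown adipocyte markers (Ucp1, Cidea, Dio2, Cox7a1, Cox8b, Elovl3, Ppargc1a, Prdm16, Zic1 and Lhx8) were higher in BAT, of which Zic1 and Lhx8 turned to -0.05 and -0.03 after 75th percentile centring. Of the 9 white adipocyte markers, Lep, Retn, Nnat, Hoxc8, Tcf21, Nnmt and Agt were higher in WAT, and Wfdc21 and Hoxc9 were so after quantile normalization but not on the deposited scale. Pparg, the master regulator of both kinds of adipocyte, and Adipoq, encoding adiponectin, were bright on every array. The plot of marker genes by array shows the levels of 12 of these and related genes.

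**Figure D1:**
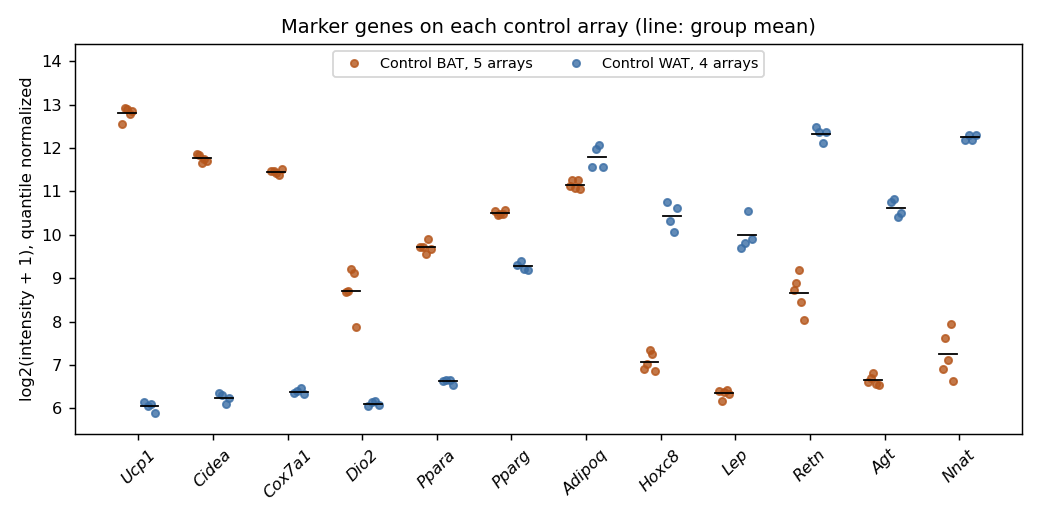
Levels of 12 genes on each of the 9 control arrays, as log2(intensity + 1) after quantile normalization, with points for arrays (5 BAT, 4 WAT) and lines for group means. Ucp1 stood at 12.56 to 12.93 in BAT and 5.90 to 6.14 in WAT, while Lep stood at 6.18 to 6.42 in BAT and 9.71 to 10.54 in WAT.

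Genes of heat production were higher in BAT as a block. All 22 measured thermogenesis effectors were higher in BAT, 21 of them at least 2-fold, with a median difference of 3.20 log2 units against -0.04 for all genes. All 22 were also called higher in BAT without the 3 BAT arrays richest in muscle genes (BAT 1, 2 and 3), which are described with the muscle list below. Over all genes that fit, which has fewer arrays, called 8372 genes, against 11550 in the main fit. Ucp1, whose promoter is printed above, was at 12.56, 12.93, 12.90, 12.79 and 12.85 on the BAT arrays and at 6.14, 6.04, 6.10 and 5.90 on the WAT arrays. It was high on every BAT array and near the floor on every WAT array. The difference was 6.76 ± 0.08 (adjusted p = 2.53e-13, limma), or 109-fold, the largest of all genes that the naming rule took. Cidea, which encodes a lipid droplet protein of brown fat, was at 11.65 to 11.87 in BAT and 6.09 to 6.36 in WAT and differed by 5.52 ± 0.06, or 45.9-fold. Otop1, a proton channel gene, was at 10.04 to 10.20 in BAT and 6.22 to 6.51 in WAT and differed by 3.68 ± 0.06. Acot11, an acyl-CoA thioesterase of brown fat, differed by 3.89 ± 0.12, and Pank1, the kinase that opens coenzyme A synthesis, by 4.30 ± 0.06. Dio2, the deiodinase that activates thyroid hormone, was the most variable of the effectors named: it read 8.69, 8.71, 9.20, 9.11 and 7.86 in BAT and 6.06 to 6.16 in WAT. BAT 5 was lowest, but the groups stayed apart, with a difference of 2.61 ± 0.22 (adjusted p = 9.95e-07, limma).

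Within gene families, members differed widely in size and, in some, in direction. Of the cytochrome oxidase pairs, Cox7a1 differed by 5.07 ± 0.04, or 33.5-fold, and its broadly expressed partner Cox7a2 by 2.23 ± 0.04. Cox8b differed by 4.53 ± 0.11 and Cox8a by 1.11 ± 0.08. The pair Cox6a1 and Cox6a2 ran the other way, with 2.10 ± 0.06 for the broadly expressed Cox6a1 and 0.44 ± 0.14 for the muscle form Cox6a2. Cox6a2 rested on few arrays: BAT 3 read 7.49 and the other BAT arrays 6.71 to 6.83, the difference was 0.29 without BAT 3, and the call was lost without WAT 1 (adjusted p = 0.0502, limma) or WAT 4 (adjusted p = 0.0588). Cox4i1 differed by 0.67 ± 0.09, and the hypoxia-linked Cox4i2 by -0.28 ± 0.06 after quantile normalization, which turned to 0.61 on the deposited scale. Besides Ucp1, Ucp3 differed by 1.70 ± 0.07. Of the deiodinases other than Dio2, Dio1 and Dio3 were near the floor in both tissues, at -0.08 ± 0.06 (adjusted p = 0.231, limma) and -0.14 ± 0.04 (0.36 on the deposited scale). Fabp3, the heart-type fatty acid binding protein, differed by 4.68 ± 0.07, against 0.39 ± 0.09 for the adipocyte form Fabp4 and 0.54 ± 0.09 for Fabp5. The plot of gene families sets these differences side by side.

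Regulators of brown fat genes were split. Of 25 measured transcription regulators, 17 were higher in BAT, 6 higher in WAT and 2 did not pass, and on all 3 scales 15 were higher in BAT and 1 in WAT. Ppara, the receptor that drives fatty acid oxidation genes, was at 9.56 to 9.91 in BAT and 6.55 to 6.66 in WAT and differed by 3.10 ± 0.06 (8.55-fold). Ppargc1a, the inducible coactivator of mitochondrial genes, read 8.60, 8.70, 8.79, 8.68 and 8.13 in BAT and 6.42 to 6.57 in WAT. All BAT arrays lay above all WAT arrays, BAT 5 again being lowest, and the difference was 2.09 ± 0.11. Its relative Ppargc1b differed by 1.78 ± 0.07. Among the estrogen-related receptors, which bind mitochondrial gene promoters, Esrrg differed by 1.61 ± 0.05 and Esrra by 1.03 ± 0.06, while Esrrb was at 0.04 ± 0.06 (adjusted p = 0.552, limma) with overlapping groups. Zbtb16, a zinc finger repressor, was the regulator higher in WAT on all 3 scales, by 2.00 ± 0.20 log2 units, or 4.01-fold, with BAT arrays at 7.26 to 8.23 and WAT arrays at 9.35 to 9.79.

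Genes of cyclic AMP signalling went both ways. Of 21 measured genes, 10 were higher in BAT, 7 higher in WAT and 4 did not pass after quantile normalization, and on all 3 scales 10 were higher in BAT and 2 in WAT. The 7 are near the share over all genes, 34.4% higher in WAT. The 8 list genes without a probe set of their own, the beta-adrenergic receptors among them, were not analysed here. Akap1, which anchors protein kinase A at mitochondria, was higher in BAT by 2.15 ± 0.08. Rgs2, which shortens G protein signals, was higher in BAT by 2.04 ± 0.26, and its BAT arrays spread from 7.78 (BAT 2) to 9.40 (BAT 4), all above the WAT maximum of 6.91. Higher in WAT were Gnai1, an inhibitory G protein subunit (-2.44 ± 0.12), and Adcy5, an adenylyl cyclase (-2.38 ± 0.07). Adcy3, another cyclase, differed by 1.97 ± 0.15 in the opposite direction; it was named after its values were seen. The 2 cyclases therefore had their high arrays in different tissues, with Adcy5 at 6.43 to 6.69 in BAT and 8.78 to 9.12 in WAT.

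Heat cycles that need no uncoupling protein showed 10 of 18 genes higher in BAT, 5 higher in WAT and 3 that did not pass, and 6 and 0 on all 3 scales. The glycerophosphate shuttle, which passes cytosolic electrons to the respiratory chain, had both enzymes higher in BAT: Gpd2, the mitochondrial one, by 2.84 ± 0.11 and Gpd1, the cytosolic one, by 1.89 ± 0.13. The calcium pump gene of slow muscle and many other cells, Atp2a2, was at 10.27 to 10.58 in BAT and 9.05 to 9.53 in WAT and differed by 1.11 ± 0.10. The fast muscle pump gene Atp2a1 read 8.60, 8.65, 10.22, 7.32 and 6.43 in BAT and 6.20 to 6.25 in WAT. All BAT arrays were above WAT but far apart, with BAT 3 highest and BAT 5 close to WAT, and the difference was 2.02 ± 0.59 (adjusted p = 0.0117, limma), or 0.58 without BAT 1, 2 and 3. Without BAT 1, 2 and 3, 6 genes of this list were higher in BAT and 5 in WAT.

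The respiratory chain was higher in BAT across all 5 complexes. Of 80 measured subunit genes, with cytochrome c, 74 were higher in BAT on all 3 scales, 3 were higher in WAT after quantile normalization and 3 did not pass, and the median difference was 1.40. By complex, 33 of 34 genes of complex I, which takes electrons from NADH, were higher in BAT (median 1.41), as were 4 of 4 of complex II, 9 of 9 of complex III (median 2.09), 15 of 17 of complex IV with cytochrome c (median 1.26) and 13 of 16 of complex V, the ATP synthase (median 0.88). Complexes I to III had no gene higher in WAT. Ndufb6, an accessory subunit of complex I, read 10.94, 11.04, 10.97, 10.92 and 10.96 in BAT and 7.94, 7.83, 7.69 and 7.90 in WAT, a difference of 3.12 ± 0.05. The arrays of a tissue lay close together and far from those of the other. Uqcrb of complex III differed by 3.07 ± 0.06 and Sdhb, the iron-sulphur subunit of complex II, by 1.87 ± 0.07. Cycs, whose promoter is printed above, was at 11.65 to 11.85 in BAT and 8.31 to 8.64 in WAT and differed by 3.30 ± 0.07, or 9.88-fold.

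ATP synthase had smaller differences than the electron carriers before it. Atp5o, a stalk subunit, differed by 1.87 ± 0.07 and Atp5j by 1.73 ± 0.05, and Atp5md, a small membrane subunit taken by size and not in the list, by 3.55 ± 0.10. The exceptions of the chain were few and were named after their values were seen. Atp5g1 (-1.09 ± 0.08) and Atp5g3 (-0.52 ± 0.06), which encode the same proton-carrying ring protein as Atp5g2 (0.63), were higher in WAT after quantile normalization, at 0.03 and 1.13 on the deposited scale. The third was Cox4i2, given above. Ndufa7 (0.22 ± 0.09, adjusted p = 0.0535, limma), Cox6b2 and Atp5l did not pass.

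Sequence windows of these genes were searched for the motifs given above, as a description. GCGCATGCG of NRF1 was in 12.5% of 72 windows of respiratory chain genes, against 2.54% of 19176 windows of all measured genes with one. It was in 5.15% of windows of genes at least 2-fold higher in BAT and in 1.03% of those at least 2-fold higher in WAT. CCGGAAGT was in 6.94%, 5.41%, 8.58% and 2.20% of the same 4 sets, TGACGTCA in 6.94%, 2.37%, 3.30% and 1.42%, and TCAAGGTCA in 2.78%, 0.297%, 0.264% and 0.388%. The last rests on 2 of the 72 windows and 57 of all windows.

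Fuel oxidation upstream of the chain was higher in BAT as well. Of 25 genes of pyruvate dehydrogenase and the citric acid cycle, 23 were higher in BAT (median 1.85). Pdhb, a subunit of pyruvate dehydrogenase, read 11.76, 11.65, 11.91, 11.71 and 11.82 in BAT and 7.30, 7.24, 7.21 and 7.31 in WAT. All BAT arrays lay far above all WAT arrays, with a difference of 4.50 ± 0.05, or 22.7-fold. Suclg1 and Sucla2, which encode the partner subunits of a succinyl-CoA ligase of the cycle, differed by 3.22 ± 0.05 and 3.15 ± 0.04. Of the kinases that switch pyruvate dehydrogenase off, Pdk4 differed by 3.92 ± 0.09, Pdk2 by 1.65 ± 0.07 and Pdk1 by 1.59 ± 0.08, and Pdk3 by -0.82 ± 0.04, which was 0.01 on the deposited scale. Pdp1, a phosphatase that switches the enzyme on, was with Pdk3 the other member higher in WAT after quantile normalization (-0.94 ± 0.07, named after its values were seen).

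Fatty acid oxidation had 22 of 23 genes higher in BAT, with a median of 1.83. Acaa2, the last thiolase of the mitochondrial cycle, differed by 3.17 ± 0.06, the carnitine carrier gene Slc25a20 by 2.71 ± 0.09 and the long-chain dehydrogenase gene Acadl by 2.71 ± 0.08. Acadl was at 12.05 to 12.09 on the BAT arrays and at 9.11, 9.65, 9.40 and 9.31 on the WAT arrays. The 1 gene of the list higher in WAT was Cpt1a, the liver form of the carnitine palmitoyltransferase that admits fatty acids to mitochondria. It read 6.90, 7.09, 7.02, 7.20 and 6.88 in BAT and 8.65 to 8.69 in WAT, a difference of -1.65 ± 0.06 (adjusted p = 1.31e-09, limma). The muscle and brown fat form, Cpt1b, was not analysed here.

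Mitochondrial ribosomal protein genes were higher in BAT in 55 of 60 cases, with none higher in WAT and a median of 0.88, below that of the respiratory chain. Mrpl30 differed by 1.77 ± 0.06, Mrpl34 by 1.71 ± 0.06, Mrps23 by 1.56 ± 0.06 and Mrpl42 by 1.52 ± 0.07. Of 34 carriers of the inner membrane, 21 were higher in BAT, 9 higher in WAT and 4 did not pass after quantile normalization, and on all 3 scales 21 and 1 were. Slc25a51, the carrier of NAD, differed by 2.10 ± 0.05 and Slc25a11, of oxoglutarate, by 1.76 ± 0.07. Slc25a10, of dicarboxylates, was higher in WAT by 1.92 ± 0.17 log2 units, with BAT arrays at 7.25 to 7.93 and WAT arrays at 9.13 to 9.96. The plot of function lists shows every member.

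**Figure D2:**
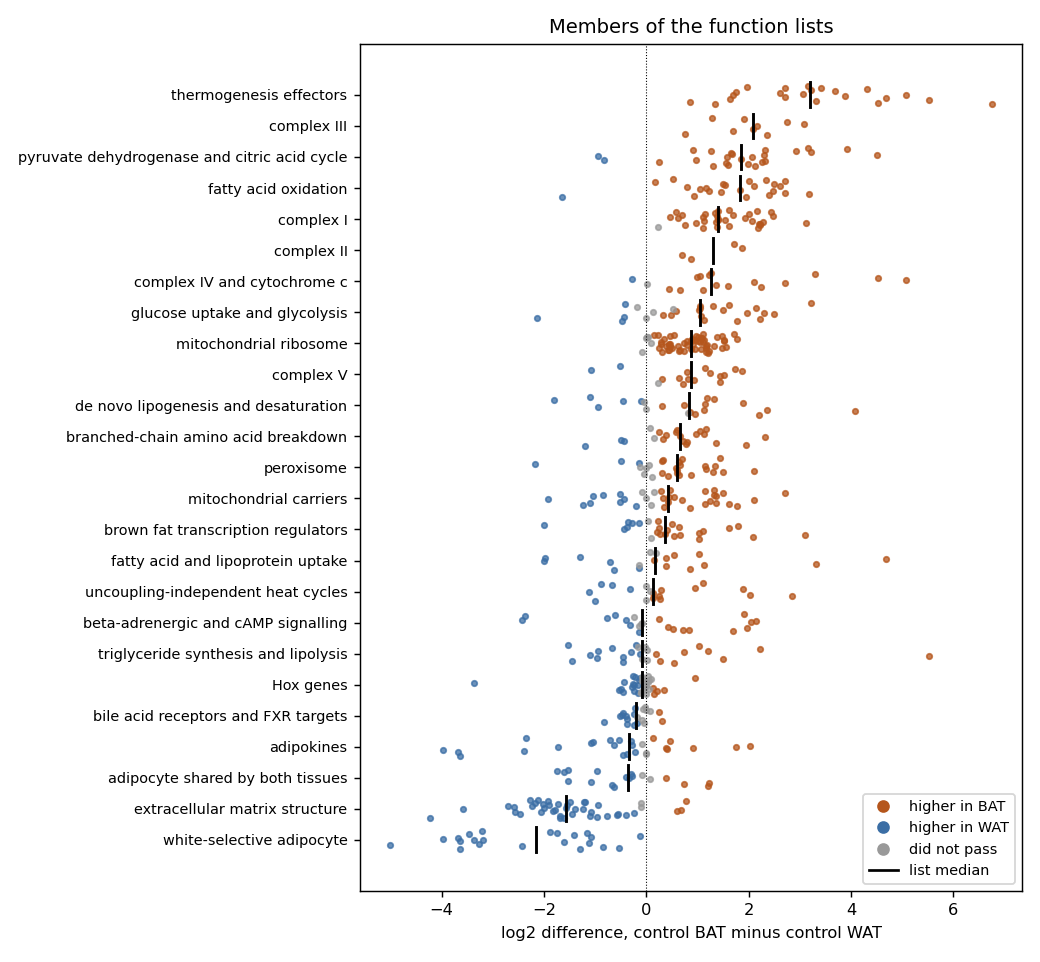
Differences between control BAT and control WAT in log2 units for each measured member of the function lists, with a bar at each list's median and colours for the direction called by limma after quantile normalization. The medians run from 3.20 for thermogenesis effectors down to -2.16 for genes selective for white adipocytes.

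Of 18 fatty acid uptake genes, 9 were higher in BAT, 6 higher in WAT and 3 did not pass after quantile normalization, and on all 3 scales 8 were higher in BAT and 2 in WAT. Besides Fabp3, Slc27a2, an acyl-CoA synthetase and transporter, was higher in BAT by 3.32 ± 0.12. Higher in WAT were Apoe, the lipoprotein of remnant particles (-1.99 ± 0.07), and its receptor gene Lrp1 (-1.99 ± 0.10). Apoe was bright on all arrays, at 10.93 to 11.35 in BAT and 13.04 to 13.15 in WAT. Cd36, the main fatty acid uptake receptor, was at 12.20 ± 0.08 in BAT and 12.35 ± 0.18 in WAT (SD) and did not pass (adjusted p = 0.134, limma), and it was higher in BAT, by 1.44, on the deposited scale. It was named after its values were seen.

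Fatty acid synthesis and elongation leaned to BAT, with 12 of 20 genes higher there, 5 higher in WAT (3 without BAT 1, 2 and 3) and 3 that did not pass after quantile normalization, and 12 and 1 on all 3 scales. Elovl6, which lengthens palmitate, read 11.79, 11.56, 11.77, 11.55 and 11.84 in BAT and 8.04, 7.16, 7.25 and 8.04 in WAT. WAT 1 and 4 were higher than WAT 2 and 3, and all were well below BAT, and the difference was 4.08 ± 0.18. WAT 1 and 4 were also the highest WAT arrays for Acly, which makes cytosolic acetyl-CoA (WAT 10.92, 9.55, 9.08 and 10.56, BAT 11.78 to 12.53), and Acaca, the carboxylase of that pathway (WAT 11.03, 10.31, 9.74 and 10.58, BAT 12.11 to 12.49). Acly differed by 2.20 ± 0.33 (adjusted p = 0.000122, limma) and Acaca by 1.89 ± 0.20, and Acacb, the mitochondrial carboxylase, by 2.35 ± 0.18. Of the elongases, Elovl3, long known as a cold-induced gene of brown fat, differed by 3.41 ± 0.17 with BAT arrays at 9.15 to 10.22, and Elovl5 by 1.15 ± 0.13. Elovl4 differed by 0.36 ± 0.05, which turned to -0.17 after 75th percentile centring. Elovl1 (-1.10 ± 0.07) and Elovl2 (-0.30 ± 0.05) were higher in WAT after quantile normalization and at 0.23 and 0.18 on the deposited scale, and Elovl7 did not pass (0.01 ± 0.04). Fads1, the delta-5 desaturase, was the 1 gene of the list higher in WAT on all 3 scales (-1.80 ± 0.16, named after its values were seen).

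Lipid droplet and triglyceride genes split by family member. Of 25 genes, 9 were higher in BAT, 11 higher in WAT and 5 did not pass; after median centring the counts were 18 and 3. On all 3 scales 9 were higher in BAT and none in WAT. Among the perilipins, which coat droplets, Plin5, the form tied to mitochondria, differed by 2.22 ± 0.08 and Plin2 by 1.04 ± 0.04. Plin3 differed by 0.20 ± 0.08 with overlapping groups, and lost its call in 7 of 9 fits with 1 array left out. Plin1, the coat of large droplets, read 11.13 to 11.30 in BAT and 12.04 to 12.34 in WAT, a difference of -0.96 ± 0.06 that turned to 0.09 after median centring and 0.72 on the deposited scale. Plin4 differed by -1.45 ± 0.07, at 0.13 on the deposited scale. The acyltransferase genes Agpat3 and Agpat2 were higher in BAT by 1.49 ± 0.09 and 1.20 ± 0.13.

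Glucose use was higher in BAT in 18 of 26 genes, with 4 higher in WAT after quantile normalization and 1 on all 3 scales, and 4 that did not pass (median 1.05). Gys2, the liver form of glycogen synthase, read 9.62, 9.79, 10.48, 9.76 and 9.85 in BAT and 6.87, 6.50, 6.69 and 6.63 in WAT. BAT 3 was highest, and all BAT arrays were above all WAT arrays, with a difference of 3.23 ± 0.15 against 0.48 ± 0.10 for the muscle form Gys1. Pgk1 differed by 2.50 ± 0.07, the phosphofructokinase gene Pfkl by 2.30 ± 0.10, and the insulin-responsive glucose transporter gene Slc2a4 by 1.03 ± 0.11. Of the hexokinases, Hk2 differed by 1.30 ± 0.12. Hk1 was at -0.44 ± 0.07 after quantile normalization but at 0.65, 0.26 and 1.28 on the other 3 scales, so its direction depended on the scale. Its call also depended on the probe set: the mean of its probe sets after quantile normalization gave -0.07 (adjusted p = 0.193, limma). Slc2a1, the basal transporter, was at -0.48 ± 0.08, and at 0.58 on the deposited scale. Ldhb, the lactate dehydrogenase of oxidative tissue, differed by 2.21 ± 0.08, while Ldha overlapped between the tissues (0.14 ± 0.13, adjusted p = 0.383, limma). Pygb, the brain form of glycogen phosphorylase, was the 1 gene of the list higher in WAT on all 3 scales (-2.13 ± 0.11, named after its values were seen).

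Breakdown of branched-chain amino acids and peroxisomal metabolism also leaned to BAT. Of 21 genes for branched-chain amino acids, 16 were higher in BAT, 3 higher in WAT after quantile normalization and none on all 3 scales, and 2 did not pass (median 0.67). Dld, a subunit that this pathway shares with pyruvate dehydrogenase, differed by 2.33 ± 0.04, Hibch of the valine branch by 1.94 ± 0.09, Mcee by 1.37 ± 0.06 and Pcca by 1.17 ± 0.04. Bcat2, the transaminase that starts the pathway, was higher in WAT after quantile normalization (-1.19 ± 0.13, 0.38 on the deposited scale; named after its values were seen). Of 27 peroxisome genes, 19 were higher in BAT, 3 higher in WAT after quantile normalization and 1 on all 3 scales, and 5 did not pass (median 0.60). The fatty acid transporters of that organelle ran in opposite directions. Abcd3 read 10.73 to 11.12 in BAT and 8.80 to 8.85 in WAT, a difference of 2.11 ± 0.07, while Abcd2 read 9.05 to 9.66 in BAT and 11.22 to 11.61 in WAT, a difference of -2.18 ± 0.12.

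Genes selective for white adipocytes were higher in WAT in 22 of 22 cases after quantile normalization, 15 of them on all 3 scales, with a median of -2.16. Nnat, an imprinted gene for a small membrane protein, read 6.90, 7.62, 7.11, 7.95 and 6.63 in BAT and 12.19, 12.29, 12.19 and 12.31 in WAT. The WAT arrays lay close together, while the BAT arrays were spread, with BAT 4 highest, and the groups stayed far apart. The difference was -5.00 ± 0.22 (adjusted p = 5.24e-09, limma), or 32.1-fold. Lep, encoding leptin, read 6.18 to 6.42 in BAT and 9.71, 9.80, 10.54 and 9.90 in WAT, a difference of -3.65 ± 0.14 or 12.5-fold. Sncg, encoding gamma-synuclein, differed by -3.65 ± 0.15, and Agt, the precursor of angiotensin, by -3.98 ± 0.09. Genes shared by both kinds of adipocyte had no direction that held over scales: of 18, 4 were higher in BAT and 12 in WAT after quantile normalization, 12 and 4 after median centring, and 14 and 0 on the deposited scale. Pparg was higher in BAT on all 3 scales, by 1.23 ± 0.05, as were Aqp7, a glycerol channel (0.74 ± 0.10), and Fabp4. Adipoq was at -0.64 ± 0.11 after quantile normalization and 1.08 on the deposited scale (named after its values were seen).

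Of 26 adipokines, 7 were higher in BAT, 16 higher in WAT and 3 did not pass, and on all 3 scales 6 and 5. Retn, encoding resistin, read 8.72, 8.90, 9.18, 8.46 and 8.03 in BAT and 12.11 to 12.48 in WAT, a difference of 12.8-fold. Igf1, the growth factor, was higher in WAT by 5.27-fold (-2.40 ± 0.12). Nrg4, an endocrine factor of brown fat, was higher in BAT by 2.03 ± 0.12, and was named after its values were seen. Other genes higher in WAT that the naming rule took by size were Aldh1a1, which makes retinoic acid (-4.16 ± 0.20), Apcdd1, a Wnt inhibitor (-3.72 ± 0.08), the protease inhibitor gene Serpina3n (-3.69 ± 0.25) and the membrane protein gene Emp1 (-3.57 ± 0.09). Aldh1a1 spread from 6.66 to 7.46 in BAT and from 10.74 to 11.80 in WAT, with no overlap.

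Hox genes, which keep a record of body position, differed through few members. Of 37 measured, 5 were higher in BAT (3 without BAT 1, 2 and 3), 15 higher in WAT and 17 did not pass after quantile normalization. On all 3 scales 4 were higher in BAT and 1 in WAT, and on the deposited scale 36 and 1, and 22 were near the floor on every WAT array. Over all genes, 23.6% were higher in BAT and 34.4% in WAT after quantile normalization. Hoxc8 read 6.92, 7.01, 7.33, 7.24 and 6.87 in BAT and 10.77, 10.31, 10.06 and 10.62 in WAT. It was the 1 Hox gene with a difference of at least 2-fold, at -3.37 ± 0.14 or 10.3-fold. Its neighbours in the cluster, Hoxc9 (-0.53 ± 0.06) and Hoxc10 (-0.12 ± 0.04), were dim, and turned to 0.18 and 0.41 on the deposited scale. Hoxa5 was higher in BAT by 0.96 ± 0.07, with arrays at 8.35 to 8.64 against 7.41 to 7.70, and Hoxa4 by 0.35 ± 0.05. Hoxa7 was at -0.46 ± 0.05 (0.56 on the deposited scale), Hoxa9 did not pass (-0.09 ± 0.04, adjusted p = 0.0959, limma), and Hoxb1, higher in BAT by 0.21 ± 0.04, turned to -0.14 after 75th percentile centring.

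Genes of the extracellular matrix were higher in WAT. Of 43, 38 were higher in WAT, 3 higher in BAT and 2 did not pass, with a median of -1.58, and on all 3 scales 18 were higher in WAT and 3 in BAT. Thbs1, a matricellular regulator of TGF-beta, read 6.42 to 6.63 in BAT and 9.96, 10.00, 11.59 and 11.41 in WAT. WAT 3 and 4 were above WAT 1 and 2, and all were above BAT, and the difference was -4.22 ± 0.31. Fn1, encoding fibronectin, differed by -3.59 ± 0.17 and Thbs2 by -2.70 ± 0.17. Col1a2 and Col3a1, fibrillar collagens, differed by -2.58 ± 0.12 and -2.46 ± 0.13. The 3 genes higher in BAT were Aspn, encoding the small proteoglycan asporin (0.77 ± 0.13), and Col12a1 (0.67) and Postn (0.60), of which the last pair was named after its values were seen.

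Fibroblast and macrophage markers moved in the same direction as the matrix genes. The fibroblast list itself holds matrix genes, Col1a1, Col3a1, Dcn and Lum among them, so its direction is not separate from theirs. Of 19 adipose progenitor and fibroblast markers, 15 were higher in WAT, 1 higher in BAT and 3 did not pass (median -0.97), and the mean level of the list was 7.59 to 7.90 on the BAT arrays and 8.65 to 8.89 on the WAT arrays. On the deposited scale 4 were higher in WAT and 10 in BAT, and on all 3 scales 4 and 1. Pdgfra, the receptor that marks progenitors, read 7.41, 7.47, 7.68, 7.86 and 7.68 in BAT and 9.62 to 9.85 in WAT, a difference of -2.07 ± 0.09, and the actin-severing protein gene Gsn differed by -2.47 ± 0.11. Of 25 macrophage markers, 24 were higher in WAT and 1, Trem2, did not pass, with a median of -1.60. The mean of the list lay between 6.62 and 6.88 on BAT arrays and between 8.16 and 8.39 on WAT arrays. On the deposited scale 13 were higher in WAT and 4 in BAT, and on all 3 scales 13 and 0. Csf1r, the receptor on which macrophages depend, read 7.00, 6.96, 7.39, 7.22 and 7.17 in BAT and 9.52 to 9.72 in WAT, a difference of -2.46 ± 0.09 or 5.52-fold. C1qc and C1qb, complement chains, differed by -2.55 ± 0.08 and -2.36 ± 0.10, and the lysozyme gene Lyz2 by -2.44 ± 0.18. The part of these cells in the matrix and white-selective differences was not tested.

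Other immune lists held smaller or fewer differences. Of 11 markers of dendritic and antigen presenting cells, 10 were higher in WAT and none in BAT after quantile normalization, 2 and none on all 3 scales, and 2 and 6 on the deposited scale, with H2-Eb1 at -2.11 ± 0.12 and Cd74, the chain that guides class II molecules, at -1.99 ± 0.15. Of 17 T and natural killer cell markers, 9 were higher in WAT and 1 in BAT, and 15 were near the floor on every WAT array. Of 8 B cell markers 5, and of 12 mast cell and granulocyte markers 3, were higher in WAT and none in BAT. Over all genes 34.4% were higher in WAT, a larger share than in the mast cell and granulocyte list. The T and natural killer, B and mast cell lists had no difference of at least 2-fold and no member called on all 3 scales; on the deposited scale 17, 7 and 12 of their genes were higher in BAT and none in WAT, and without BAT 1, 2 and 3 their counts higher in WAT were 5, 2 and 2.

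Mesothelial genes, of the layer that lines the body cavities and covers organs within them, were dim in BAT and higher in WAT. All 14 markers were higher in WAT, 9 on all 3 scales, with a median of -1.39, list means of 6.24 to 6.27 on the BAT arrays and of 7.62 to 8.18 on the WAT arrays. Upk3b, a surface protein gene used to mark mesothelium, read 6.13 to 6.22 in BAT and 10.07, 9.26, 10.16 and 10.00 in WAT. WAT 2 was lowest, and the difference was -3.69 ± 0.15, or 12.9-fold. Upk1b, Nkain4 and Gpm6a differed by -2.92 ± 0.10, -2.77 ± 0.11 and -2.43 ± 0.14. The white-selective list shares Wt1 with this one. How far mesothelial cells add to other differences toward WAT was not tested.

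Hepatocyte markers made up another group higher in WAT, 11 of 11 markers and 8 on all 3 scales, with a median of -1.82. Alb, encoding albumin, read 7.54, 6.34, 9.07, 7.36 and 6.25 in BAT and 10.39, 9.93, 11.24 and 10.06 in WAT. BAT 3 was highest within BAT and WAT 3 highest within WAT, and the groups did not overlap, with a difference of -3.09 ± 0.51 (adjusted p = 0.000272, limma). Cyp2e1, a cytochrome P450, read 8.44 to 10.37 in BAT and 12.36 to 12.70 in WAT and differed by -2.95 ± 0.32. Ahsg and Apoa1 differed by -2.23 ± 0.25 and -2.20 ± 0.15. The list mean was 6.82 to 7.54 on the BAT arrays and 8.76 to 9.46 on the WAT arrays.

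Skeletal muscle genes were higher in BAT and uneven among its arrays. The mean of the 37 genes was 7.12, 7.06, 7.75, 6.67 and 6.52 on the BAT arrays and 6.35 to 6.42 on the WAT arrays, where 29 genes were near the floor on every array. BAT 3 was highest and BAT 5 lowest, and each was above WAT. After quantile normalization 25 were higher in BAT, none in WAT and 12 did not pass (median 0.54), and on all 3 scales 18 were higher in BAT. After 75th percentile centring the counts were 10 and 9, and without BAT 1, 2 and 3 they were 12 and 3. Ckm, muscle creatine kinase, read 8.53, 8.19, 9.77, 7.05 and 6.73 in BAT and 6.29 to 6.53 in WAT, a difference of 1.66 ± 0.50 (adjusted p = 0.0138, limma), and the fast myosin gene Myh4 differed by 1.86 ± 0.44. Without BAT 1, 2 and 3 these were 0.45 and 0.72. Myl1, a myosin light chain, was steadier, at 8.69 to 9.21 in BAT and 6.79 to 7.15 in WAT, a difference of 1.93 ± 0.10. Without BAT 1, 2 and 3 the thermogenesis count stayed at 22, and that of complex I at 33. That of the citric acid cycle went from 23 to 22, that of fatty acid oxidation from 22 to 20 and that of mitochondrial ribosomes from 55 to 52. Over all genes the calls went from 4699 to 3464 higher in BAT and from 6851 to 4908 higher in WAT. Counts therefore fell for genes at large as well. Whether muscle RNA or the smaller number of arrays lowered the count of a list was not tested.

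Markers of blood vessels split. Of 20 endothelial markers, 3 were higher in BAT, 9 higher in WAT and 8 did not pass after quantile normalization. After median centring 13 and 4 were, on the deposited scale 18 and 0, and on all 3 scales 3 and 0. Kdr, the main receptor for VEGF, was at 9.10 to 9.45 in BAT and 8.32 to 9.07 in WAT and differed by 0.54 ± 0.13, Emcn by 0.50 ± 0.09 and Flt1, a decoy for VEGF, by 0.49 ± 0.10. These are the 3 higher in BAT, as the naming rule took no endothelial marker higher in WAT. Over the list, differences ran from -1.48 to 0.54 (median -0.09). Without BAT 1, 2 and 3 Kdr was at 0.52 (adjusted p = 0.0536, limma). Of 14 smooth muscle and pericyte markers, 4 were higher in BAT, 7 higher in WAT and 3 did not pass after quantile normalization, and on all 3 scales 4 and 1 were. The pericyte genes Rgs5 and Cspg4 were higher in BAT by 0.98 ± 0.11 and 0.95 ± 0.06, and Mcam, an adhesion molecule of vessel walls, was higher in WAT by 2.69 ± 0.10 log2 units, or 6.46-fold. Among 13 Schwann cell and nerve markers, S100b, which brown adipocytes are known to make, differed by 1.75 ± 0.06, with BAT arrays at 7.70 to 7.91 and WAT arrays near the floor, and Pmp22 by -2.08 ± 0.13. Mbp, a myelin protein gene, was higher in BAT by 0.36 ± 0.05. Th, of noradrenaline synthesis, differed by 0.22 ± 0.06, which turned to -0.26 after 75th percentile centring.

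**Figure D3:**
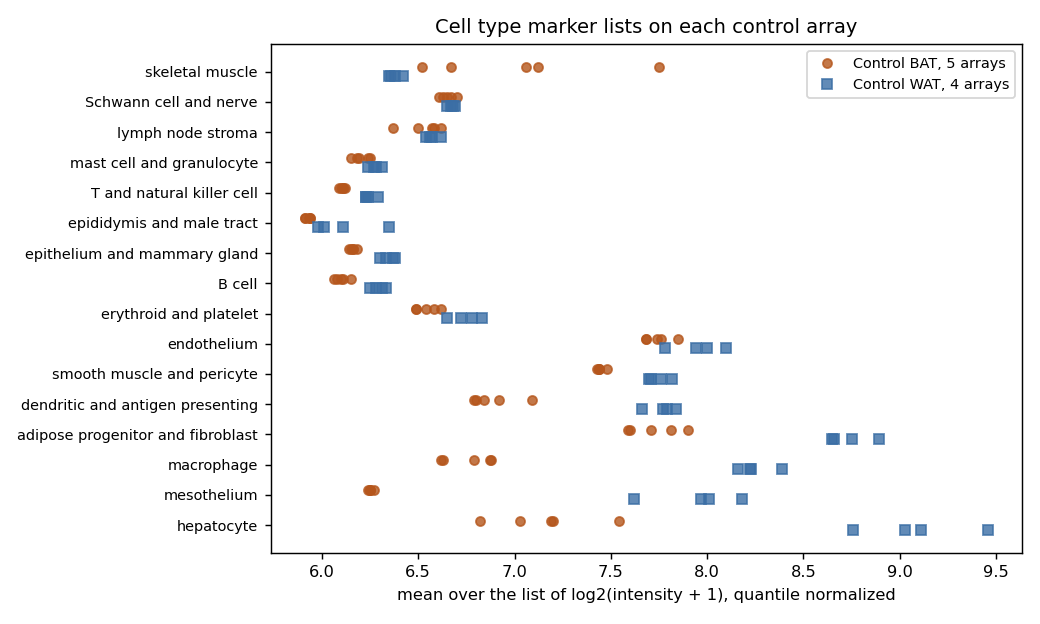
Mean of log2(intensity + 1) over each cell type marker list on the 9 control arrays, with circles for BAT and squares for WAT. The hepatocyte, mesothelium and macrophage lists lie higher on every WAT array, and the skeletal muscle list spreads from 6.52 to 7.75 over the BAT arrays.

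Of the remaining cell types, 7 of 14 epithelial markers, 3 of 9 epididymis markers and 3 of 8 erythroid and platelet markers were higher in WAT after quantile normalization, and 1 erythroid and platelet marker, Itga2b, was higher in BAT (0.18 ± 0.05, -0.19 after 75th percentile centring). None of these markers was higher in WAT on all 3 scales. The epithelial list shares Krt8 and Krt18, both higher in WAT after quantile normalization, with the mesothelial list. Of its 14 genes, 11 were near the floor on every WAT array. Over all genes 34.4% were higher in WAT, near the shares in the epididymis and the erythroid and platelet lists. The epididymis list mean was 5.91 to 5.94 in BAT and 5.98 to 6.35 in WAT, with 7 of 9 genes near the floor on all WAT arrays, and no gene of it was higher in WAT without BAT 1, 2 and 3, when 4 epithelial and 1 erythroid and platelet marker were. Of 4 lymph node stroma markers 1, Glycam1, was higher in BAT after quantile normalization (0.10, named after its values were seen).

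Bile acid receptors and FXR targets, the pathway of the study's transgene, were dim in control fat. Of 20 genes, 2 were higher in BAT, 11 higher in WAT and 7 did not pass after quantile normalization, with 19 and 0 on the deposited scale and 1 and 0 on all 3 scales. Nr1h4, the mouse gene of FXR, was near the floor on every array, at 6.01 to 6.09 in BAT and 6.21 to 6.34 in WAT, with a difference of -0.24 ± 0.04 that turned to 0.29 on the deposited scale. Nr0b2, encoding the repressor SHP, was near the floor as well, at -0.24 ± 0.05 and 0.27. Gpbar1, the membrane receptor for bile acids, was higher in BAT on all 3 scales, by 0.31 ± 0.04 after quantile normalization, but was at -0.09 after 75th percentile centring. None differed by 2-fold.

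Clock, immediate early and cell cycle genes can follow the time and manner of dissection, which the labels do not give. Of 17 clock genes, 5 were higher in BAT (3 without BAT 1, 2 and 3), 5 higher in WAT and 7 did not pass after quantile normalization, against 17 and 0 on the deposited scale and 5 and 0 on all 3 scales, with Bhlhe40, a repressor that also answers to hypoxia, at 1.20 ± 0.11 and Nr1d2 at 0.98 ± 0.10. After quantile normalization both clock counts were near the shares over all genes, 23.6% higher in BAT and 34.4% higher in WAT. Ciart differed by 0.49 ± 0.11 with overlapping groups and Hlf by 0.25 ± 0.07. The naming rule took no clock gene higher in WAT, and differences over that list ran from -0.89 to 1.20. Of 24 immediate early genes, 4 were higher in BAT, 13 higher in WAT and 7 did not pass after quantile normalization, while 22 and 0 were on the deposited scale and 4 and 0 on all 3 scales. Nr4a1, an orphan receptor induced by adrenergic signals, read 7.95, 7.94, 9.70, 9.85 and 9.10 in BAT and 6.57, 6.61, 7.19 and 6.99 in WAT, with BAT 3, 4 and 5 above BAT 1 and 2 and a difference of 2.07 ± 0.39 (adjusted p = 0.000737, limma). Nr4a2 differed by 1.24 ± 0.12. Egr3 (0.30 ± 0.06) and Ier2 (0.17 ± 0.05) were at 0.00 and -0.06 after 75th percentile centring. These are the 4 higher in BAT, and differences over the immediate early list ran from -1.09 to 2.07 (median -0.31). Of 27 cell cycle genes, 18 were higher in WAT after quantile normalization, none on all 3 scales, 8 did not pass and 1, Rrm1, a subunit of ribonucleotide reductase, was higher in BAT (1.14 ± 0.06). On the deposited scale all 27 were higher in BAT. Most were dim: 18 were near the floor on every WAT array and 6 on every BAT array.

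The last comparison asked for which genes the tissue difference was not the same in mice with human FXR in adipose tissue. Over 18 arrays, quantile normalized together, the difference between genotypes in BAT minus WAT passed for 875 genes (4.39%), in 605 of which the tissue difference was smaller in FXR mice and in 270 larger. Of the 1555 genes that differed at least 2-fold between the control tissues, 1552 had the same sign in FXR mice. The 3 others were Ifi27l2a, an interferon-induced gene, at -1.19 in controls, Septin9, a cytoskeletal gene, at 1.19, and Paqr9, a membrane receptor gene, at 1.12; the first pair was named after its values were seen. Paqr9 ranged from 8.82 to 9.13 in BAT and from 7.61 to 8.31 in WAT of controls, and from 7.84 to 8.55 in BAT and from 8.74 to 9.80 in WAT of FXR mice, so that the order of the tissues turned (genotype difference -1.97 ± 0.29, adjusted p = 0.000939, limma).

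Brown fat effectors were among the genes whose tissue difference was smaller in FXR mice. Of 22 thermogenesis effectors, 9 had a smaller tissue difference in FXR mice (a negative genotype difference) and none a larger one. Without FXR BAT 1, 2 and 4, whose muscle levels are given below, 10 had a smaller one. Over all 19937 genes, 527 genotype differences were negative and 348 positive, and 409 and 362 without those 3 arrays. Dio2 ranged from 7.85 to 9.16 in BAT of controls, from 6.45 to 7.13 in BAT of FXR mice and from 6.05 to 6.17 in WAT of both genotypes, and its tissue difference was lower by 1.93 ± 0.26 log2 units (-1.93). Elovl3 lay between 9.11 and 10.18 in BAT of controls, between 6.21 and 8.14 in BAT of FXR mice and at 6.12 to 6.54 in all WAT (genotype difference -2.44 ± 0.38). Gys2 differed on both sides: BAT arrays lay between 9.57 and 10.43 in controls and between 7.32 and 8.83 in FXR mice, and WAT arrays between 6.52 and 6.89 and between 7.42 and 8.44 (-2.74 ± 0.36). Ucp1 itself differed by -0.54 ± 0.12 (adjusted p = 0.0152, limma), with FXR BAT at 12.24 to 12.50 and a tissue difference of 6.17 that left all BAT arrays far above all WAT arrays.

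Matrix and stromal genes had genotype differences of the other sign. Of 43 matrix genes 17, of 19 progenitor and fibroblast markers 10 and of 25 macrophage markers 6 had a positive genotype difference, against 1 negative among the macrophage markers and none in the other lists. Over all 19937 genes, 348 were positive and 527 negative. Because the fibroblast list holds matrix genes, the matrix and fibroblast counts are not separate. Thbs2 was at 6.31 to 6.60 in control BAT and 8.61 to 9.53 in control WAT, but at 7.55 to 7.95 in FXR BAT and 7.59 to 8.50 in FXR WAT (genotype difference 2.36 ± 0.25), so that the FXR tissues overlapped. Ogn, a small proteoglycan gene, was at 6.55 to 7.23 in control BAT and 8.38 to 8.93 in FXR BAT (1.67 ± 0.20), while its WAT levels overlapped. Thbs4 and Aspn were higher in FXR BAT than in control BAT, with genotype differences of 1.52 ± 0.17 and 1.48 ± 0.22. Fam13a did not pass between the control tissues (0.31 ± 0.16, adjusted p = 0.13, limma) and was low in FXR WAT, at 7.23 to 8.58 against 9.62 to 10.29 in control WAT (1.97 ± 0.35). Slc5a7, a choline transporter gene, lay between 5.92 and 6.17 in WAT of controls and between 7.01 and 8.19 in WAT of FXR mice (-1.62 ± 0.24). The skeletal muscle list stood at 9.58, 9.00 and 9.62 on FXR BAT 1, 2 and 4, at 6.61 and 7.64 on FXR BAT 3 and 5, and at 6.54 to 7.74 in control BAT. Without FXR BAT 1, 2 and 4, an alternative added once the values were known, 771 genes passed, 362 of them positive and 409 negative. Positive were 15 matrix, 7 fibroblast and 1 macrophage marker. Negative were 1 matrix and 1 macrophage marker, so the macrophage list no longer had a direction. The 10 genes with the largest genotype differences named here kept their direction and their call. The plot of both genotypes shows all named genes.

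**Figure D4:**
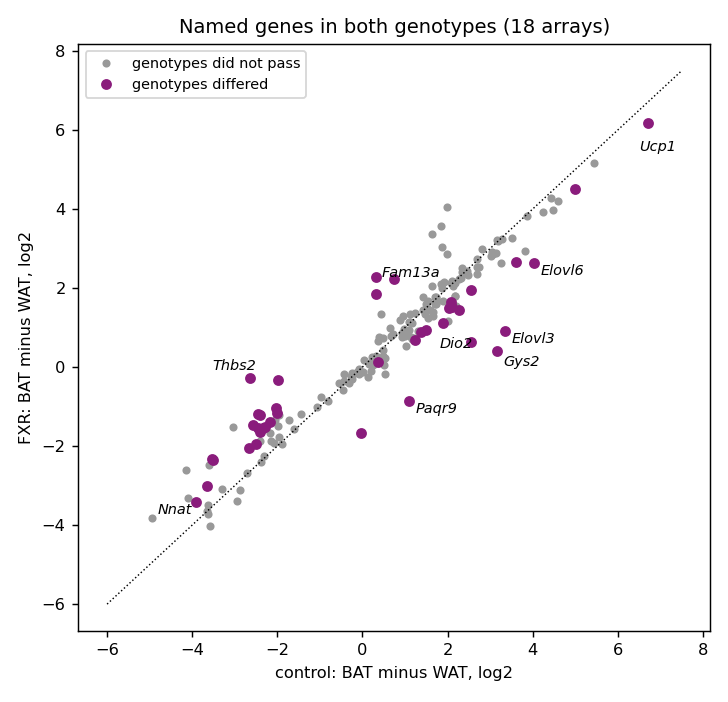
Tissue difference (BAT minus WAT, log2 units, 18 arrays) in control mice on the horizontal axis and in FXR mice on the vertical axis for the named genes, with coloured points where limma's test of the genotype difference passed and a dotted line of equality. Paqr9 lies below 0 only in FXR mice, and Elovl3, Gys2 and Dio2 lie far below the line.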

How the data were processed

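Gene expression was measured in 18 adipose samples, 1 array each, of which the 9 control arrays are compared here. The series value table deposited by the authors holds 1 intensity per probe set and array on a linear scale. The authors' summarisation and normalization: not given in the sources used here. Of 34760 probe sets, 21640 have 1 gene symbol, 1321 several and 11799 none listed, in GEO's platform annotation; 21553 of the first matched a gene ID of the reference table. The brightest probe set per symbol gave 19937 genes, 954 of which had several probe sets. Values were log2(intensity + 1), quantile normalized over the 9 arrays. BAT was compared with WAT by limma 3.58.1 (lmFit and eBayes, R 4.3.3) over all genes, with Benjamini-Hochberg adjustment at 0.05, and the fit was tested on simulated data. The genotype comparison used 4 group means over 18 arrays. P-values measure the spread between samples as labelled.

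Named genes were the 12 largest differences in each direction among genes called on 3 scales whose groups did not overlap (without predicted genes, receptors of smell, small RNAs and immune receptor segments), up to 4 members of each of 44 lists called on 3 scales, all members of chosen families, Nr1h4, Nr0b2 and Gpbar1, and the 5 largest genotype differences in each direction; others are said to be named after their values were seen. Of 933 list genes 872 were measured. The members and lists were chosen with earlier results of these data known. Alternatives were median centring, 75th percentile centring, the deposited scale, all 18 arrays, a pseudocount of 16, low genes left out, the mean of a gene's probe sets, a variance trend, a replicate block, each array left out, and BAT 2 and 4 left out. Added after seeing the data were a floor subtraction and fits without BAT 1, 2 and 3 and without FXR BAT 1, 2 and 4.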

Additional observations from a re-analysis of the deposited data

Results flagged for a closer look

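In 18 cases 1 array stood apart from the others of its group by the gap between its value and the next, relative to the range of the group. Chance gives this in about 1 in 20 groups. With 186 named genes in 2 tissues, that rate alone gives about as many cases, so they are listed and not read further. On BAT 1, Uqcrq was at 10.74 (others 10.60 to 10.64). On BAT 3, Sdha was at 12.09 (others 12.22 to 12.24), Acadl was at 12.05 (others 12.08 to 12.09), Gys2 was at 10.48 (others 9.62 to 9.84), Ldhb was at 10.10 (others 9.79 to 9.87), and Cox6a2 was at 7.49 (others 6.71 to 6.83). On BAT 4, Sdhc was at 11.07 (others 10.86 to 10.92), and Col3a1 was at 9.48 (others 8.78 to 8.93). On BAT 5, Ppargc1a was at 8.13 (others 8.60 to 8.79). On WAT 1, Emp1 was at 10.55 (others 10.74 to 10.77). On WAT 2, Otop1 was at 6.22 (others 6.49 to 6.51), and Cyp2e1 was at 12.70 (all others 12.36). On WAT 3, Zbtb16 was at 9.35 (others 9.75 to 9.79), Uqcrq was at 7.65 (others 7.94 to 8.00), Flt1 was at 7.49 (others 7.94 to 8.01), Gpm6a was at 9.07 (others 8.23 to 8.34), and Plin2 was at 10.36 (others 10.52 to 10.53). On WAT 4, Cox6a1 was at 9.13 (others 9.38 to 9.40).

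For 40 of the 186 named genes limma's test found that the difference between BAT and WAT was not the same in the 2 genotypes. Over all genes, 4.39% passed this test. The genes with the largest genotype differences in each direction were named because of this comparison. The count among named genes therefore cannot be set against the share over all genes. Each value is the tissue difference in FXR mice minus that in control mice, in log2 units. The negative values were Gys2 -2.74, Elovl3 -2.44, Paqr9 -1.97, Dio2 -1.93, Slc5a7 -1.62, Elovl6 -1.40, Otop1 -0.97. Smaller negative values were Pfkl -0.83, Gpd1 -0.77, Acss1 -0.59, Abcd3 -0.57, Nr4a2 -0.55, Ppargc1a -0.55, Ucp1 -0.54. Further negative values were Agpat3 -0.53, Mcee -0.49, Cox7a1 -0.48, Slc25a51 -0.43, Elovl4 -0.24. The positive values were Thbs2 2.36, Fam13a 1.97, Ogn 1.67, Thbs4 1.52, Aspn 1.48, Col3a1 1.24, Fn1 1.21. Smaller positive values were Lyz2 1.20, Emp1 1.16, Col1a2 1.10, Pdgfra 0.99, Gsn 0.92, Apoe 0.87, Igf1 0.79. Further positive values were C1qb 0.79, Abcd2 0.77, Csf1r 0.75, Apcdd1 0.65, Mcam 0.62, C1qc 0.55, Agt 0.48.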

How the results depend on the processing

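Scale decided most counts. After median centring 7662 genes were higher in BAT, 1865 and 266 were at least 2-fold higher in BAT and WAT, and 1606 had a genotype difference. After 75th percentile centring 17901 genes were called, 13865 of them higher in WAT. On the deposited scale 19291 were called, 18896 higher in BAT and 395 in WAT, with 5124 and 70 at least 2-fold. With the floor subtracted, an alternative added after seeing the data, 1118 were at least 2-fold higher in BAT. The direction turned after 75th percentile centring for Hoxb1 (-0.137), Gpbar1 (-0.088), Egr3 (-0.004), Ier2 (-0.062), Th (-0.255), Itga2b (-0.188), Elovl4 (-0.171), Thbs4 (-0.136) and Hk1 (0.264), after median centring for Hk1 (0.652) and Plin1 (0.093), and on the deposited scale for Cox4i2 (0.607), Dio3 (0.356), Slc2a1 (0.578), Hk1 (1.281), Pdk3 (0.008), Elovl1 (0.231), Elovl2 (0.181), Plin1 (0.722), Plin4 (0.132), Hoxc9 (0.183), Hoxc10 (0.407), Hoxa7 (0.559), Nr1h4 (0.286) and Nr0b2 (0.266). The cause was not tested. Leaving out 1 array in turn gave 10799 to 11535 calls, 602 to 901 genotype differences, and lost the call of 2 of 179 called named genes, Cox6a2 and Plin3. Same-numbered BAT and WAT arrays did not all deviate together (correlations 0.1818, 0.1489, 0.1415 and -0.08), so a pairing by number was not established; with the replicate block 10585 genes were called, 633 had a genotype difference, and Hoxc10 lost its call. Signal near the floor limits what can be said of dim genes, above all in WAT, where 9506 genes were near the floor on every array.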
